A study of Homo sapiens with 6 samples.

Results

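Mitochondrial ribosomal protein genes were examined in PANC-1 cells with silencing of ZDHHC20. PANC-1 is an established human pancreatic cancer cell line. The genes were chosen by name alone, as those whose full symbol is MRPL or MRPS followed by digits and an optional A, B or C, with a mean of at least 1 over all libraries. The rule gave 78 genes of the 27394 in the deposited table, 49 named MRPL and 29 named MRPS, and every one of the 78 passed the filter that left 22189 genes for testing. RNA-seq had been done on 3 libraries of cells carrying a control shRNA (shControl) and 3 of cells with an shRNA against ZDHHC20 (shZDHHC20). Both groups were the same cell line in the same serum-containing medium, and cells of both groups had been infected with an shRNA vector. ZDHHC20 encodes a palmitoyltransferase, an enzyme that attaches a fatty acid to cysteines of other proteins. Which ZDHHC20 shRNA was used for these libraries, and whether the 3 replicates were separate cultures, is not given in the sources used here, so p-values measure the spread between these libraries, which may be technical.

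Mitochondria carry their own ribosome, which makes the few membrane subunits of the respiratory chain and of ATP synthase that are encoded in mitochondrial DNA. Its rRNAs are transcribed inside the organelle, whereas all of its proteins are encoded by nuclear genes, translated in the cytosol and imported. The large subunit (MRPL genes) forms the peptide bond and holds the exit tunnel. The small subunit (MRPS genes) binds the mRNA and decodes it. Some of these proteins have bacterial homologues and others are found only in mitochondria. The names do not follow the structure throughout, since MRPS30 and MRPS18A sit in the large subunit, and MRPS36 has since been assigned to the oxoglutarate dehydrogenase complex.

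The promoters of these genes are shown first, because genes of the mitochondrial ribosome are known for sharing binding sites of ETS factors such as GABP, and GABPA is among the regulators measured here. RefSeq promoters (GRCh38.p14, 250 bases before to 50 after the start) matched 69 of the 78 genes by symbol. The ETS core CCGGAAG, searched on both strands, was found in 29 of these 69 promoters (42%), beside 10.3% of all 35116 promoters and 15.1% of the 18639 promoters whose gene was tested. Of its 39 matches, 33 began before the start and 28 lay within 60 bases of it. The YY1 motif AAGATGGCG was in 13 promoters (18.8%), beside 2.91% of promoters of tested genes, and 10 of its 14 matches began at or after the start. The NRF1 motif GCGCATGCG was in 3 promoters (4.35% beside 2.84%) and the E-box CACGTG in 6 (8.7% beside 9.01%). TATAAA was in 2 (2.9% beside 7.01%). No motif contains another, and a match describes letters, not a bound site.

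The 120 bases before the start are given for the 4 genes of highest level that hold an ETS match there, MRPL20 (chr1:1407294-1407413), MRPL3 (chr3:131502972-131503091), MRPS10 (chr6:42217862-42217981) and MRPS34 (chr16:1773135-1773254), each on the minus strand and written 5′ to 3′ on the strand of the gene. Capitals mark the ETS core or its reverse complement.
MRPL20: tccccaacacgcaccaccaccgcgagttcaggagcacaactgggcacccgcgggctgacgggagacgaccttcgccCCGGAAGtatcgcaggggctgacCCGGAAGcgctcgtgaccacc
MRPL3: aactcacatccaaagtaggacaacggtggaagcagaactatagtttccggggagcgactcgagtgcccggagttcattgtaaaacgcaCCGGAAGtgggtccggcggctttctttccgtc
MRPS10: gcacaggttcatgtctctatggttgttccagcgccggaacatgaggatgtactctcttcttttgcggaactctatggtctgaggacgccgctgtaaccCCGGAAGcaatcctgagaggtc
MRPS34: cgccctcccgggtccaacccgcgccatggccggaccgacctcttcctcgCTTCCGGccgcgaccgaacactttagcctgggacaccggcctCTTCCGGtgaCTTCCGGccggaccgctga
MRPL20 holds 2 matches, at 44 and 21 bases before the start, and MRPS34 holds 3 within 71 bases of it. The same stretch of 2 genes described below as changed, MRPL34 (chr19:17292453-17292572, plus strand) and MRPS33 (chr7:141014953-141015072, minus strand), is given for comparison and holds none of the 5 motifs. The MRPS33 promoter does hold the ETS core, beginning at the start site and so just past the printed bases. The MRPL34 promoter holds none of the 5 over its full length.
MRPL34: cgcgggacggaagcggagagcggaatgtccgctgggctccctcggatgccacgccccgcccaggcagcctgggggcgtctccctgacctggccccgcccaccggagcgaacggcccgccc
MRPS33: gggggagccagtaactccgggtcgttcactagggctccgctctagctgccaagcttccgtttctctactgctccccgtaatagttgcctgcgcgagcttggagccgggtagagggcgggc

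The deposited values behave as read counts scaled by a single factor for every library, and they are called normalized counts here. Taking the smallest step of a library as 1 read, the libraries held 16575546 to 18441049 reads. ZDHHC20 itself was at 2001, 2033 and 1940.4 normalized counts in shControl and at 872, 779 and 893 in shZDHHC20, 42.6% of the control mean (log2 fold change -1.23, SE 0.0649, adjusted p = 4.36e-07, limma with Benjamini-Hochberg adjustment over all genes). The 5 epithelial markers, mostly KRT8, summed to 80637 to 82633 normalized counts in shControl and 75337 to 76670.1 in shZDHHC20, which do not overlap. KRT8 and KRT18 were lower in every silenced library, with limma adjusted p of 0.0631 and 0.0549. KRT19 was higher in every silenced library, at 6250.4 to 6364 against 5771 to 6044 (limma adjusted p = 0.218). KRT7 overlapped (limma adjusted p = 0.91). EPCAM, an epithelial adhesion molecule, rose from 65.7, 95.4 and 56.1 to 534, 477 and 563 (log2 fold change 2.89, limma adjusted p = 6.7e-07). The part of these markers in the members' values was not tested. Of 15 markers of immune, endothelial, stromal, acinar and islet cells, 7 were in the table, and 6 of these stayed under 10 in every library. The exception was COL1A1, at 3882 to 3958 in shControl and 3113 to 3376 in shZDHHC20. COL1A1 was called lower (log2 fold change -0.27, limma adjusted p = 0.00288). The library shZDHHC20 replicate 2 stood apart: 4.01% of its sum came from mitochondrial DNA, against 5.28% to 5.52% in the other 5 libraries. Results are therefore given with and without it.

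The 78 genes were expressed over a wide range, with 75 at a mean of at least 100 normalized counts and 21 at 1000 or more. Levels between genes are compared per kilobase of 1 annotated transcript per gene. The highest was MRPS12, a decoding-centre protein, at 3688 normalized counts per kb. It was followed by MRPL20, an rRNA-binding protein, at 2012, by MRPL3, a large-subunit core protein, at 1807, and by MRPS10, of the small-subunit head, at 1429.5. The median was 525 per kb. The 4 lowest were MRPS17 at 75.3, MRPL53 at 31.1, MRPL38 at 24.3 and MRPS24 at 3.93.

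These low levels lay beside annotated overlaps. In 6 genes more than 50% of the transcript was shared with another gene on the same strand, and their median level was 75.1 per kb, against 562 for the rest. MRPS24 shares 85.71% of its transcript, largely with the readthrough gene URGCP-MRPS24, and its highest value in any library was 4.7 normalized counts. MRPL46 shares 71.05%, MRPL12 68.19%, MRPL38 67.85%, MRPS28 55.41% and MRPL53 52.32%. How the authors' counting treated shared bases was not tested, so the values of these 6 genes are uncertain as measures of their mRNA. Fewer cells expressing a gene and less of its RNA per cell cannot be told apart in such bulk libraries. Named pseudogenes exist for 34 of the 78 genes (75 in all, 8 of them for MRPS21), and reads may have been divided among such copies.

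**Figure D1:**
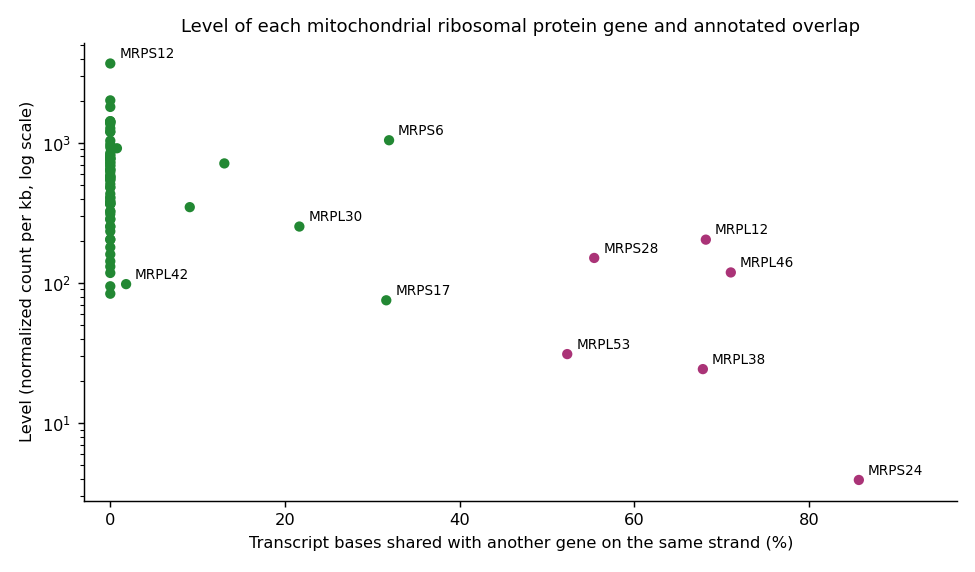
Mean level over all libraries (normalized counts per kb, log scale) against the percentage of transcript bases shared with another gene on the same strand, 1 point per gene; purple marks more than 50% shared. MRPS12 is highest at 3688, and the 3 lowest points, MRPL53, MRPL38 and MRPS24, all share more than 50%.

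With ZDHHC20 silenced, most mitochondrial ribosomal protein genes moved little. On the log2(value + 0.1) scale the fold changes ran from -0.58 to 0.33 with a median of -0.0375 (all genes tested, 0.0132), and 69 of the 78 lay within 0.25 of 0. The 95% interval lay within 0.5 either way for 68. At an adjusted p under 0.05, 5 genes fell (MRPL10, MRPS17, MRPL34, MRPL9 and MRPL37) and 2 rose (MRPL49 and MRPS33). The 7 calls are 8.97% of the members, while 11.5% of all genes tested were called, 4.61% higher and 6.84% lower. For genes at a mean of 100 or more the background was 21.7%, and 7 of 75 members (9.33%) were called. The count was no larger than the background. It moved to 2, 2 and 2 without shControl replicates 1, 2 and 3, and to 3, 23 and 5 without shZDHHC20 replicates 1, 2 and 3. The calls over all genes moved too, over a range given in the closing section. Without shZDHHC20 replicate 2 they were 20.0% of genes tested, beside 29.5% of members. At a mean of 100 or more the shares were 38.3% of genes and 30.7% of members. With every library scaled to the same sum, 3 members rose and 2 fell. Their median turned to 0.0047 as that of all genes moved to 0.0563, so it stayed below that of all genes.

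MRPL10 (17:47823272-47831534 on GRCh38, minus strand), the protein that anchors the large subunit's flexible stalk, fell most. It was at 955, 855 and 879 normalized counts in shControl and at 589, 624 and 581 in shZDHHC20. The groups did not overlap and every silenced library was well below every control. The mean went from 896 ± 52.2 to 598 ± 22.5 (SD, n = 3), a change of -33.2% (log2 fold change -0.58, SE 0.0707, limma adjusted p = 0.000156). MRPL10 passed the test in each of the 18 alternative analyses, with limma adjusted p between 8.87e-06 and 0.0454. LRRC46 starts 93 bases away on the other strand, and it had a log2 fold change of 0.11 (SE 0.214, limma adjusted p = 0.806).

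MRPL34 (19:17292609-17306843, plus strand), a small rRNA-binding protein of the large subunit, was the next firmest decrease. It had 678, 599.6 and 651 normalized counts in shControl and 437, 532 and 431 in shZDHHC20. All silenced libraries were below all controls, with replicate 2 nearest to them. The log2 fold change was -0.47 (SE 0.0925, limma adjusted p = 0.00532), and it passed the test without any single library. It was lost without the mean-variance trend (limma adjusted p = 0.131). An opposite-strand gene, ABHD8, shares 13.23% of its exon bases and was at 371 to 379 in shControl and 334 to 465 in shZDHHC20.

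The other 3 decreases were smaller or less firm. MRPS17 (7:55951819-55956501), an early-binding protein of the small subunit, was at 149, 178 and 158 normalized counts in shControl and 129, 107 and 113 in shZDHHC20. Its groups did not overlap (log2 fold change -0.47, SE 0.133, limma adjusted p = 0.0355), and 31.6% of its transcript is shared with another gene on the same strand. MRPL9 (1:151759643-151763564), a large-subunit protein, was at 466, 511 and 506 against 391, 405 and 428, a log2 fold change of -0.28 (SE 0.0802, limma adjusted p = 0.0414). An opposite-strand overlap covers 39.43% of its transcript. MRPL37 (1:54184041-54225464), a protein found only in mitochondria, was at 2174, 2221 and 2223 against 1885, 1949.6 and 2035. It decreased by 11.3%, the smallest change called (log2 fold change -0.17, SE 0.0526, limma adjusted p = 0.0497).

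Both increases were in proteins found only in mitochondria. MRPS33 (7:141002610-141015228), of the small-subunit head, was at 323, 376 and 372 normalized counts in shControl and 427, 486 and 429 in shZDHHC20 (log2 fold change 0.33, SE 0.0922, limma adjusted p = 0.0368). MRPL49 (11:65122183-65127371), of the large subunit, was at 2174, 2221 and 2271 against 2469.7, 2955 and 2466 (log2 fold change 0.24, SE 0.0683, limma adjusted p = 0.0388). In both genes the groups did not overlap and replicate 2 was the highest silenced library. Of the 6 called genes with a promoter sequence, MRPS33 alone held the ETS core, beginning at its start site, and MRPL37 and MRPL49 held the E-box 170 and 245 bases before theirs.

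The 5 calls other than MRPL10 and MRPL34 rested on the full set of libraries. Each of the 5 missed the threshold without shControl replicate 1, 2 or 3. MRPL37 and MRPL49 also missed it without shZDHHC20 replicate 1, MRPS17 without replicate 3, MRPS33 without either of them, and MRPL9 also without either. Over these single omissions the limma adjusted p reached 0.201 for MRPL37, 0.159 for MRPL49, 0.164 for MRPL9, 0.163 for MRPS17 and 0.179 for MRPS33, and no direction changed. For single genes an exact permutation test of 3 against 3 libraries cannot go below 0.1, two-sided, and each of the 7 reached 0.1.

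**Figure D2:**
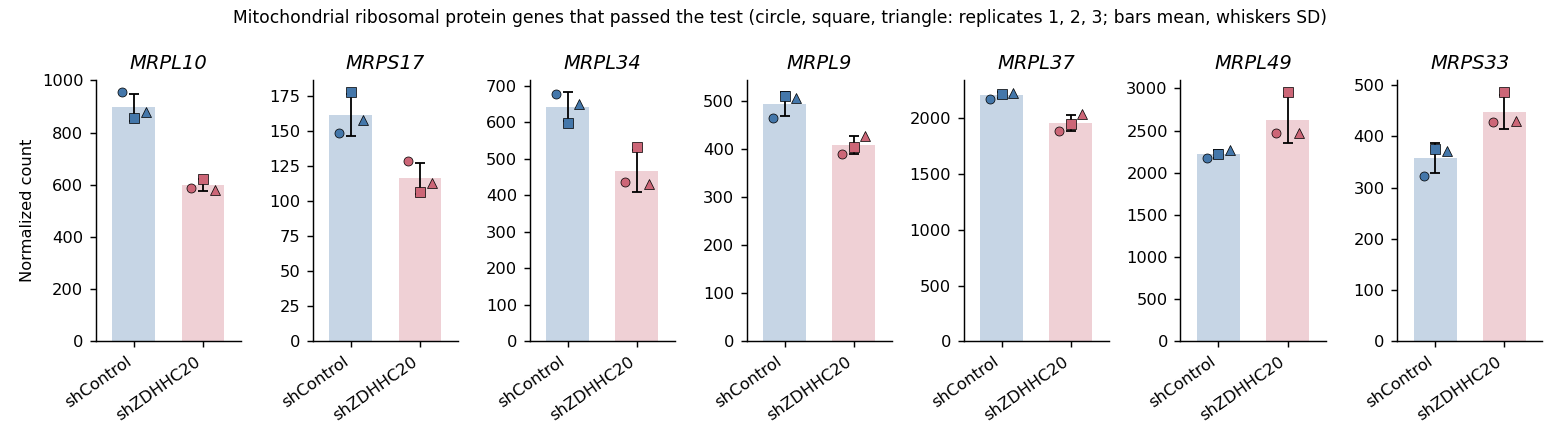
Normalized counts of the 7 genes past the threshold, 1 panel per gene, with the mean (bar), SD (whisker) and each library (points; circle, square and triangle for replicates 1, 2 and 3). MRPL10 falls from a mean of 896 to 598, and in MRPL34, MRPL49 and MRPS33 the square of shZDHHC20 replicate 2 lies above the other silenced libraries.

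Groups of members gave similar counts. By structure, the 51 large-subunit genes had 1 called higher and 4 lower (median log2 fold change -0.0496), and the 26 small-subunit genes had 1 higher and 1 lower (median -0.0001). The 48 genes with a bacterial homologue had 4 lower and 0 higher, and the 30 found only in mitochondria had 2 higher and 1 lower. The difference between these groups was not tested. In 25 members (32.1%), 17 lower and 8 higher, no silenced library fell within the range of the controls, which held for 28.6% of all genes tested. These 25 were all among the 75 members at a mean of 100 or more (33.3%), where the share over all genes was 42.6%, so the members were below the background of their level. The 5 mitochondrial ribosome genes measured under other symbols (DAP3, PTCD3, CHCHD1, AURKAIP1 and GADD45GIP1) had log2 fold changes from -0.12 to 0.06 and limma adjusted p from 0.288 to 0.979. Without shZDHHC20 replicate 2, described below, AURKAIP1 was called lower (log2 fold change -0.13, limma adjusted p = 0.0261).

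Some members had large estimates that missed the threshold. MRPL12, which binds MRPL10 to form the stalk, was at 259, 206 and 267 normalized counts in shControl and at 148, 246 and 135 in shZDHHC20. Its groups overlap through replicate 2 alone, and it had the largest spread between replicates of any member but MRPS24 (log2 fold change -0.51, SE 0.19, limma adjusted p = 0.111). Without that library its log2 fold change was -0.78 (limma adjusted p = 0.000586). MRPL23, at the exit tunnel, had -0.33 (limma adjusted p = 0.0871), with shControl at 534, 695 and 485 and shZDHHC20 at 436, 478 and 436. MRPL51, found only in mitochondria, had -0.27 (limma adjusted p = 0.111), with 948, 973 and 994 against 776, 974 and 698. In the other direction MRPL33, a small rRNA-binding protein, had 0.33 (limma adjusted p = 0.125), MRPL1, of the mobile stalk at the tRNA exit, 0.25 (limma adjusted p = 0.0966) and MRPS28, of the small subunit, 0.24 (limma adjusted p = 0.44). The genes of highest level differed little between the groups. MRPL3 had 3094 ± 15.9 and 3073 ± 131, MRPS10 3015 ± 129 and 3017 ± 221, and MRPL20 1441 ± 15.5 and 1459 ± 73.7 (mean normalized counts ± SD, n = 3, shControl and shZDHHC20). MRPS12 had 4696 ± 67.5 and 4303 ± 403 (log2 fold change -0.13, 95% interval -0.26 to 0.0008). The lowest, MRPL53, MRPL38 and MRPS24, had intervals reaching beyond 0.4 on both sides of 0.

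**Figure D3:**
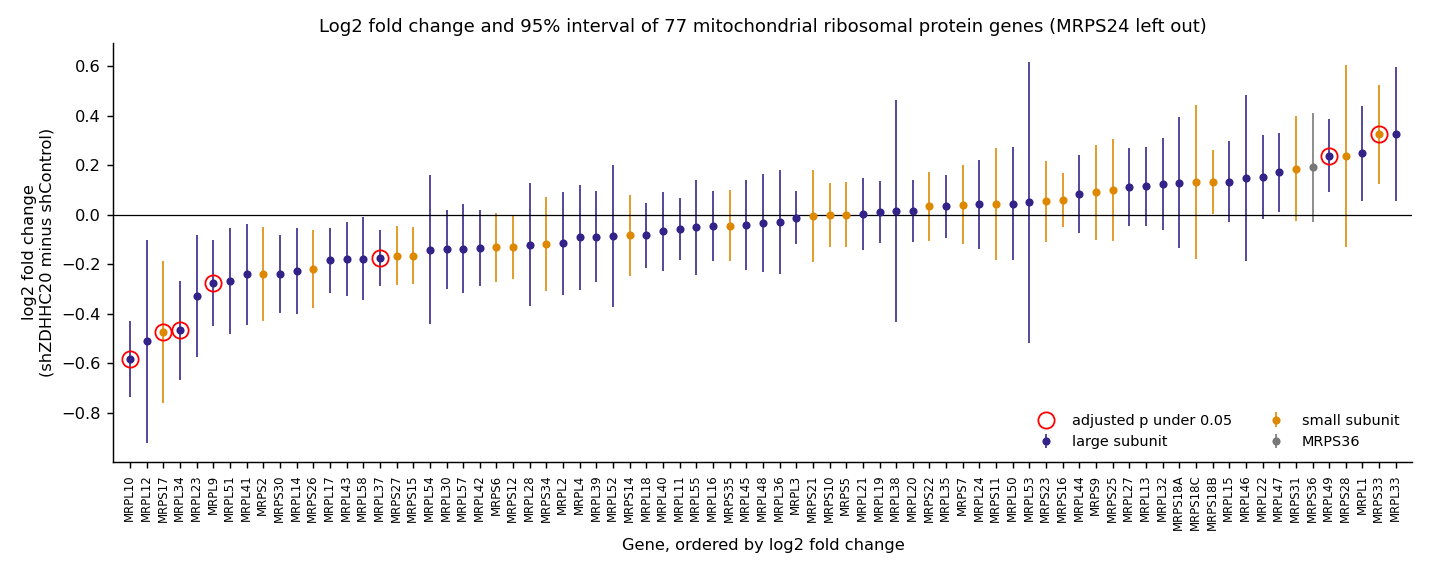
Log2 fold change (points) and 95% interval (lines) of 77 members ordered from lowest to highest, coloured by subunit, with red circles for an adjusted p under 0.05. MRPS24 is left out because its interval runs from -2.07 to 1.87. Points run from -0.58 for MRPL10 to 0.33 for MRPL33 and 54 of the 78 intervals include 0.

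The library shZDHHC20 replicate 2 differed from the other silenced libraries in these genes. It was the highest silenced library in 45 of the 78 members (57.7%), replicate 3 in 25 and replicate 1 in 8, whereas among the 10908 genes at a mean of 100 or more it was highest in 37.2% and lowest in 46.8%. Relative to the control mean the median member was at -0.0696, 0.0424 and -0.0304 (log2) in shZDHHC20 replicates 1, 2 and 3. The 78 genes together made up 0.4214% of the library sum in replicate 2, 0.3856% and 0.3846% in replicates 1 and 3, and 0.3963% to 0.3988% in the controls. The library sum of replicate 2 was the smallest of all, at 17083276.95, so its share was taken of a smaller total. In normalized counts the genes summed to 71983 in replicate 2, near the 71359 to 71640.1 of the controls. Replicates 1 and 3 were lower, at 67741 and 68258. By these sums replicate 2 lay further from replicate 1 than either replicate 1 or 3 lay from any control.

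Without that library, 23 of the 78 members passed the threshold (29.5%), 20 lower and 3 higher, beside 20.0% of all genes called and 11.1% called lower. For genes at a mean of 100 or more the shares in either direction were 30.7% of members and 38.3% of all. The share called lower was not counted at that level, so the 11.1% is not matched to the members' level. The 23 included all 7 genes called with every library. Of the other 16, MRPL1 was higher and 15 were lower. The decreases included MRPS12 at 4074 and 4067 in replicates 1 and 3 against 4635 to 4768 in the controls (log2 fold change -0.21, limma adjusted p = 0.000195). MRPL51 fell by 0.40 on the log2 scale (limma adjusted p = 0.000271) and MRPL41, a large-subunit protein found only in mitochondria, by 0.36 (limma adjusted p = 0.000662). MRPL28, which is at 1077 and 975 in replicates 1 and 3 but 1482 in replicate 2 against 1223 to 1288 in the controls, fell by 0.30 (limma adjusted p = 0.00136). For MRPS12, MRPL51, MRPL41 and MRPL28 the value in replicate 2 was within or above the range of the controls. The same held for MRPL12, MRPL52 and MRPS34, which were also called lower. MRPL14, MRPL17, MRPL23, MRPL43, MRPS15, MRPS26, MRPS27 and MRPS30 were called lower too, and in these genes replicate 2 was itself below every control. It was only just below the lowest control in MRPL14 (756 against 764), MRPL23 (478 against 485) and MRPS26 (879 against 889.9). Leaving out this library was 1 of 6 single omissions, and the other 5 each gave 2 to 5 calls.

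Transcript GC content moved with these values. Across the 78 members, which share the same libraries, the log2 fold change had a Spearman rho of -0.506 with the GC content of the transcript, and -0.635 without replicate 2. For 10400 protein-coding genes at a mean of 100 or more the values were -0.209 and -0.363. The difference of replicate 2 from replicates 1 and 3 had a rho of 0.416 with GC content in the members and 0.584 in those 10400 genes. The 39 members of higher GC content (50.33% to 71.95%) had a median log2 fold change of -0.09, with 4 called lower and 1 higher, and the 39 of lower GC content (34.96% to 48.95%) had 0.0348, with 1 each. With the GC trend of each library removed, the log2 fold change still had a Spearman rho of -0.333 with GC content in the members. In the 10400 genes the rho was then -0.0361. With this removal 10 members were called, 1 higher and 9 lower, 5 of them among the 7. These are 12.8% of the members, beside 14.3% of all genes called in that fit. With the trend removed and replicate 2 left out, 16 members were called (20.5%), 1 higher and 15 lower, beside 18.1% of all genes. MRPL10, MRPL34, MRPL9, MRPL49 and MRPS17 were called there, MRPL37 and MRPS33 were not. At a mean of 100 or more these 2 fits called 13.3% and 21.3% of members. The share of all genes at that level was not counted for them. In the fits without the GC correction it was 21.7% with all libraries and 38.3% without replicate 2. Whether GC content has a part in the members' changes was not tested beyond these values.

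The start sites of some members lie beside those of other genes. A protein-coding gene begins within 1000 bases upstream on the other strand for 17 members, among them the pair MRPL46 and MRPS11, whose starts are 34 bases apart. MRPL10 is the only called member among them, so a shared call could be seen in 1 pair. Of 16 such neighbours tested, 1 was called, beside 11.5% of all genes and 21.7% of those at a mean of 100 or more. It was NDUFS6, a complex I subunit beside MRPL36. NDUFS6 was at 995 ± 58.8 normalized counts in shControl and at 747 ± 195 in shZDHHC20 (mean ± SD), a wider spread in the silenced group. Its log2 fold change was -0.44 (SE 0.132, limma adjusted p = 0.0462), while MRPL36 itself had -0.03. The 29 members with the ETS core had a median log2 fold change of -0.0032 and the 40 without it -0.0702, a difference that was not tested.

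Other genes of mitochondrial gene expression were measured from lists of assembly factors, translation factors, and transcription and RNA-processing genes. Beside the counts in these lists and those below, 11.5% of all genes tested were called with every library. Without shZDHHC20 replicate 2 it was 20.0%. For genes at a mean of 100 or more the shares were 21.7% and 38.3%. Of 32 assembly factors, 1 fell. It was DHX30, an RNA helicase needed for ribosome assembly, at 2631, 2487 and 2552 against 2293, 2286 and 2165 (log2 fold change -0.19, limma adjusted p = 0.034). MTG1, a GTPase that acts on the large subunit, had the highest estimate at 0.52 and missed the threshold (limma adjusted p = 0.0504). Of 17 translation factors, 1 rose, the release factor gene MTRF1, at 138, 149 and 159 against 188, 211 and 212 (log2 fold change 0.45, limma adjusted p = 0.0224). Their medians were -0.0403 and -0.0011. Without shZDHHC20 replicate 2, 5 assembly factors were lower (DHX30, GTPBP6, MPV17L2, NGRN and NSUN4), and 3 translation factors were higher (MTRF1, GFM1 and MTIF2) and 1 lower (TUFM). DHX30 missed the threshold in 5 single omissions (limma adjusted p up to 0.173) and MTRF1 in 4, each shControl library and shZDHHC20 replicate 3 (up to 0.108); DHX30 passed without shZDHHC20 replicate 2 alone (0.0031). DHX30 was also lost with the GC trend removed (log2 fold change -0.14, limma adjusted p = 0.082).

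Of 28 transcription and RNA-processing genes, 2 fell and 1 rose (median -0.0499). FASTKD5, needed to mature mitochondrial mRNAs that lack flanking tRNAs, rose from 556, 532 and 563 to 814, 755 and 783 normalized counts. Its groups were far apart (log2 fold change 0.51, SE 0.0689, limma adjusted p = 0.000363). TFAM, which packages mitochondrial DNA and starts its transcription, fell from 1681, 1664 and 1727 to 1233, 1039 and 1309 (log2 fold change -0.51, SE 0.0772, limma adjusted p = 0.000841). TWNK, the mitochondrial DNA helicase, fell from 729, 690 and 684 to 586, 563 and 549 (log2 fold change -0.31, SE 0.0697, limma adjusted p = 0.0116). FASTKD5 and TFAM passed the test without any single library. Without the mean-variance trend FASTKD5 passed (limma adjusted p = 0.0443) and TFAM did not (0.1). Without shZDHHC20 replicate 2, 2 genes of the list were higher (FASTKD5 and LRPPRC) and 4 lower (TFAM, TWNK, POLRMT and TBRG4). TWNK missed it without shControl replicate 1 or 2 (limma adjusted p up to 0.0824), and it overlaps exons of MRPL43 on the opposite strand.

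The mitochondrial DNA-encoded products showed replicate 2 most plainly. Of 13 mRNAs, 2 fell, MT-ATP6 from 32604, 33538 and 32409 to 26984, 18649 and 26924 (log2 fold change -0.46, limma adjusted p = 0.0116), and MT-ND3 from 14904, 16228 and 15797 to 13692, 12728 and 13847 (log2 fold change -0.22, limma adjusted p = 0.00929). MT-ATP6 missed the threshold without any 1 of the controls (limma adjusted p up to 0.0757), and MT-ND3 without shControl replicate 2 or 3 (up to 0.0808). The median of the 13 was -0.2 with all libraries and -0.0256 without replicate 2, where 3 were lower (MT-ATP6, MT-ND3 and MT-CYB) and 3 higher (MT-CO1, MT-ND4L and MT-ND5). MT-ATP8, unlike the rest, was highest in replicate 2, at 116, 113 and 78.1 in shControl against 99.6, 467 and 64.5. Its log2 fold change of 0.51 (limma adjusted p = 0.591) turned to -0.33 without that library (limma adjusted p = 0.354). The rRNAs moved apart in sign. MT-RNR1, of the small subunit, was at 15057, 18581 and 16709 against 18887, 18590.2 and 20271 (log2 fold change 0.20, limma adjusted p = 0.064). MT-RNR2, of the large subunit, was at 157351, 164109 and 158627 against 141475, 103264 and 152094 (log2 fold change -0.29, limma adjusted p = 0.0857). Without replicate 2 both passed, at 0.23 (limma adjusted p = 0.0133) and -0.13 (limma adjusted p = 0.0017).

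Of 11 regulators known to act on mitochondrial genes, 3 fell and 1 rose. MYC, a transcription factor that drives ribosome and mitochondrial genes, fell from 1797, 1845 and 1969 to 1269.8, 1231 and 1218 (log2 fold change -0.59, SE 0.0576, limma adjusted p = 2.79e-05). ESRRA, a nuclear receptor of mitochondrial biogenesis, was at 1383, 1258 and 1394 against 825, 1268 and 777 (log2 fold change -0.53, SE 0.138, limma adjusted p = 0.025). Its groups overlapped through replicate 2, and without that library the log2 fold change was -0.75 (limma adjusted p = 6.76e-07). HCFC1, a transcriptional coregulator, fell by 0.19 on the log2 scale (limma adjusted p = 0.0248). GABPA, the DNA-binding subunit of GABP, rose from 1588, 1686 and 1666 to 1964, 1798 and 2187 (log2 fold change 0.26, SE 0.0693, limma adjusted p = 0.0255). MYC passed without any single library. ESRRA and GABPA passed in 1 of the 6 single omissions, without shZDHHC20 replicate 2, with limma adjusted p up to 0.153 and 0.132 in the others, and HCFC1 in 2 (up to 0.16). HCFC1 was also lost with the GC trend removed (log2 fold change -0.14, limma adjusted p = 0.161), with equal library sums (-0.15, limma adjusted p = 0.059) and with the GC trend removed and replicate 2 left out (-0.051, limma adjusted p = 0.356). NRF1 and YY1 had log2 fold changes of 0.0041 and -0.0704, with limma adjusted p of 0.989 and 0.454.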

How the data were processed

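RNA had been extracted with Trizol and made into strand-specific Illumina libraries. The authors deposited a normalized signal for every gene in every library, in 1 table. Its name says FPKM, although the values of a library were whole multiples of its smallest value above 0, with no division by gene length (100% of values up to 1000 steps were within 0.02 of a whole multiple). The submitters' processing notes name the build hg19. The aligner, counting tool and test are not given in the sources used here. Columns named siZDHHC20 and NC were matched to the sample titles by group and replicate number. No columns of other samples were present.

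Gene symbols came from the reference table (27175 of 27394 identifiers), with the rest, positions, transcripts and overlaps from GENCODE 29 on GRCh38. For length and GC content the longest APPRIS principal transcript was used, or the longest basic one where there was none. The design had assumed FPKM, and its test was kept: log2(value + 0.1), a mean of at least 1, and limma 3.58.1 in R 4.3.3 with group as the term, a moderated variance with a mean-variance trend, and two-sided p-values adjusted by Benjamini-Hochberg over 22189 genes. Figures were drawn with matplotlib 3.10.9. The code was tested on simulated data.

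The same replicate number did not pair libraries (correlations of deviations -0.0518, -0.0562 and -0.0215 over 15101 genes). The genes, lists and roles were chosen with earlier results of these data known. Named genes were the members at an adjusted p under 0.05, the 4 highest and 4 lowest by level, the 3 largest uncalled estimates on each side, the 2 most variable, and up to 5 called genes per list. Genes called only without shZDHHC20 replicate 2, list genes called only then, the genomic neighbours, EPCAM and MTG1 were chosen after their values were seen. GC and length corrections, equal library sums, and the GC correction without replicate 2 were added after the data were seen.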

Additional observations from a re-analysis of the deposited data

How the results depend on the processing

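Of the alternatives to the 7 members called, the count was 4 after quantile normalization, 1 without the mean-variance trend (MRPL10), 15 with GC content and length trends removed, and 16 with the GC trend removed and shZDHHC20 replicate 2 left out. Leaving out single libraries gave 2 to 23. The remaining alternatives gave 5 to 10. Over all genes the 2541 calls became 351 without the trend, 1233 to 4454 with a library left out, and 4030 with the GC trend removed and replicate 2 left out. The 7 calls in the lists of mitochondrial gene expression, regulators aside, became 12 with a mean of at least 10, 1 without the trend (FASTKD5), 12 with the GC trend removed, 13 with length too, 22 with the GC trend removed and replicate 2 left out, and 3 to 24 with a library left out. The median member log2 fold change was 0.0047 with equal library sums, where the median of all genes was 0.0563, and otherwise -0.0588 to -0.0075. The cause of these differences was not tested. The replicate numbers share only a label, and the fit with a replicate block called 5 members, 4 of them among the 7, 1942 genes in all and 6 list genes. DHX30 and HCFC1 were not called with the block (adjusted p = 0.0782 and 0.0625). A count test in edgeR, planned as an alternative, was not run, because the values were handled as a normalized signal. Precision is limited by 3 libraries a group, and for MRPS24, MRPL53 and MRPL38 by low values.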
